A study of Mus musculus with 14 samples.

Results

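The genes described here encode carriers of the solute carrier (Slc) superfamily, which move sugars, amino acids, creatine, lactate and related molecules across membranes. They were chosen by gene symbol as the members of 10 Slc families (Slc1, Slc2, Slc3, Slc5, Slc6, Slc7, Slc16, Slc36, Slc38 and Slc43) in the count table, with Slc1a3, Slc2a1, Slc7a2 and Slc7a11 left out. The choice used no measured value and gave 68 of the 14084 genes. One of them, Slc7a6os, shares its neighbour's symbol and is not a carrier. Counts were high enough for a test in 65 of the 68, and Slc2a12, Slc6a17 and Slc7a10 were not tested.

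RNA was measured in microglia, the resident macrophages of the brain, sorted by FACS from the cerebral cortex of C57BL/6 mice aged 8 to 10 weeks. For stroke, the distal part of the middle cerebral artery was ligated for good and the common carotid arteries on both sides were closed for a short time. In the sham group the surface of the skull alone was lesioned. Sham and 6 times after stroke (days 1, 3, 7, 21, 60 and 90) gave 7 groups of 2 libraries, 14 libraries in all. No genotype or drug is named in the labels. The labels state neither the sort markers nor when sham tissue was taken. Nothing in the labels says whether the 2 libraries of a group are separate animals. Each p-value rests on the spread within such groups, pooled over the 7 groups and moderated across genes. That spread may be technical.

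Libraries numbered replicate 1 held 15254983 to 28758420 counts and those numbered replicate 2 held 100625099 to 191692779. The 68 genes took 0.142 to 0.373% of the counts of a library, and 53 to 66 of them had a count. On the first principal component of all genes the sham libraries lay outside the range of the stroke libraries, and the second component separated the replicate numbers. The 15 homeostatic microglia markers summed to 5478 and 2796 CPM (each count scaled to the size of its library) in sham and to 4179 to 40884 CPM after stroke. Of the 15, edgeR called 6, 9, 10, 11, 9 and 9 higher than sham on days 1, 3, 7, 21, 60 and 90, and 1 lower on each of days 7 and 90. The 13 measured neutrophil markers summed to 24881 and 34565 CPM in sham and to 421 to 8735 CPM after stroke, and each of the 13 had counts in every group. Monocyte markers reached 9394 and 14529 CPM in sham and 749 to 20205 CPM after stroke. In the same order of days, edgeR called 0, 1, 7, 0, 2 and 3 of the 13 neutrophil markers lower than sham. For the 12 monocyte markers these counts were 0, 0, 5, 0, 4 and 2. No marker of either list was called higher. The 4 measured erythroid markers summed to 233 and 249 CPM in sham and to at most 5.24 CPM after stroke. The 9 measured B cell markers summed to 181 and 197 CPM in sham, 10.8 to 28.8 CPM on days 1, 3 and 7 and 53.1 to 346 CPM on days 21, 60 and 90, and the 11 measured T and NK cell markers to 49.6 and 73.0 CPM, 5.94 to 42.7 CPM and 83.5 to 201 CPM. The 11 markers of border-associated macrophages summed to 1464 and 821 CPM in sham and 493 to 2635 CPM after stroke. Of the sham sums, F13a1, which is also on the monocyte list, alone held 1411 and 654 CPM. Without the top marker of each library, the sums were 52.4 and 167 CPM in sham and 270 to 1661 CPM after stroke. Of the 11, edgeR called 7, 7, 4, 4, 5 and 5 higher than sham on days 1, 3, 7, 21, 60 and 90, and 1 lower on day 60. The sham libraries thus differed from the stroke libraries in marker content, and the part of this in the results against sham was not tested. Replicate 2 of days 60 and 90 had neuron marker sums of 1188 and 982 CPM and pericyte marker sums of 1357 and 1133 CPM. Camk2a alone held 1187 and 981 CPM of the former, and Pdgfrb 1352 and 1124 CPM of the latter. Replicate 1 of these days had 2.55 and 1.95 CPM for neuron and 9.37 and 19.3 CPM for pericyte markers. In such bulk libraries, fewer cells of a type and less RNA per cell cannot be told apart.

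Carriers of the Slc families set what a cell can take up and release. Slc2 carriers let hexoses or urate pass down their gradients, Slc5 carriers use the sodium gradient for sugars, inositol and vitamins, and many Slc16 carriers move lactate and other monocarboxylates together with protons. Amino acids are handled by several families: Slc7 exchangers, several of which work as pairs with the heavy chain Slc3a2, the sodium-driven Slc1, Slc6 and Slc38 carriers, and Slc36 and some Slc38 carriers of the lysosome. Glycolytic macrophages export lactate through Slc16a3, and Slc2a5 is a known microglial gene in the brain.

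The 250 bases upstream of the transcription start are shown for 3 genes on which the results turn: Slc3a2, which had the highest level per kilobase of exon after stroke, and the lactate carriers Slc16a3 and Slc16a1, which differed from sham in opposite directions. Sequences are those of RefSeq on the build GRCm38.p6, read 5′ to 3′ on the strand of the gene. Capitals mark the core of the hypoxia response element, ACGTG on either strand, which the E-box CACGTG holds on both strands. Slc3a2 is on the minus strand (chr19:8713898-8714147), and Slc16a3 (chr11:120948817-120949066) and Slc16a1 (chr3:104638414-104638663) are on the plus strand.
Slc3a2: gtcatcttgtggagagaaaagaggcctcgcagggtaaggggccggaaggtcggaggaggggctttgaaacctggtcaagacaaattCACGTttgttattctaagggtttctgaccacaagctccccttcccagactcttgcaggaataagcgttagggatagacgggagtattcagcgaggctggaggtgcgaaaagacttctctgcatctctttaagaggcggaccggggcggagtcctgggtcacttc
Slc16a3: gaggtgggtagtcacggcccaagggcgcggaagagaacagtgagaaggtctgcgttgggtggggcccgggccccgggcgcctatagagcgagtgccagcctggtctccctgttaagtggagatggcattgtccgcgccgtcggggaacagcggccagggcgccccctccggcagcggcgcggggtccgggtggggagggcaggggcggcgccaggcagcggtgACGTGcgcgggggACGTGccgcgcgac
Slc16a1: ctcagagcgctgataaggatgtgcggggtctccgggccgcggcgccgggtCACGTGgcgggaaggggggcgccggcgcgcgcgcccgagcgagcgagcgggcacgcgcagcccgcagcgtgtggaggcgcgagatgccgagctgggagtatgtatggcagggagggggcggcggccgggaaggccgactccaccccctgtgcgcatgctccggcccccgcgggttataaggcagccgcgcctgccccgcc
The core was found 1 time in Slc3a2 and 2 times in each of the other promoters, in Slc16a1 as the strands of 1 E-box. Of the 67 promoters listed for 49 of the 68 genes, 19.4% held ACGTG, against 16.6% of 32851 promoters of the same length. The E-box was in 8.96% against 6.02%, the ATF4 element TGATGNAA in 2.99% against 3.45% and the PU.1 core GAGGAA in 19.4% against 23.3%, each searched on both strands. These matches of letters are a description.

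Levels below are CPM scaled by TMM library factors, with replicate 1 first and replicate 2 second. A gene was called at an edgeR quasi-likelihood adjusted p under 0.05 over all genes tested, and log2 fold changes stand with ± 1 standard error. Of the 65 carrier genes, 6 were called against sham on day 1, all higher, where 4.55% of all genes were called (3.18% higher, 1.37% lower). On day 3 the count was 11, 10 of them higher, against 8.28% of all genes (5.20% higher, 3.07% lower). It was 14 on day 7, 11 of them higher, against 12.6% of all genes (7.00% higher, 5.63% lower). On day 21 there were 11, all higher, against 6.44% of all genes (693 of 13861 higher, and 1.44% lower). The 6 called on day 60 were 3 higher and 3 lower, beside 7.85% of all genes (4.96% higher, 2.89% lower), and with upper-quartile scaling 4 were higher and 2 lower. On day 90, 7 were called, 5 of them higher, beside 7.86% of all genes (5.12% higher, 2.73% lower). As shares of the 65 these counts were 9.23, 16.9, 21.5, 16.9, 9.23 and 10.8%.

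The median log2 fold change of the 65 against sham was 0.85, 1.05, 1.07, 1.35, 0.69 and 0.81 on days 1, 3, 7, 21, 60 and 90, beside 0.04, 0.15, 0.06, 0.06, 0.14 and 0.11 over all genes. With genes that lacked counts in a group placed at a floor of 3 counts, the medians were 0.82, 0.90, 1.07, 1.35, 0.69 and 0.80. No carrier gene was called lower by edgeR on day 1 or day 21, where 6 and 2 had an unadjusted p under 0.05, DESeq2 called 5 and 2 and limma-voom 2 and 6. Over the 6 times, 18 genes were called against sham in 55 calls, 14 genes higher and 4 lower. In each of the 55, which were picked by adjusted p on the same values, the libraries of the time and of sham did not overlap. The shares that follow include genes that were not called. Over all genes, 22.2, 28.9, 32.1, 27.5, 33.9 and 36.4% lay above sham without overlap on days 1, 3, 7, 21, 60 and 90, and 23.0, 24.5, 27.6, 24.1, 26.9 and 27.2% lay below it. All 6 comparisons use the same 2 sham libraries.

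**Figure D1:**
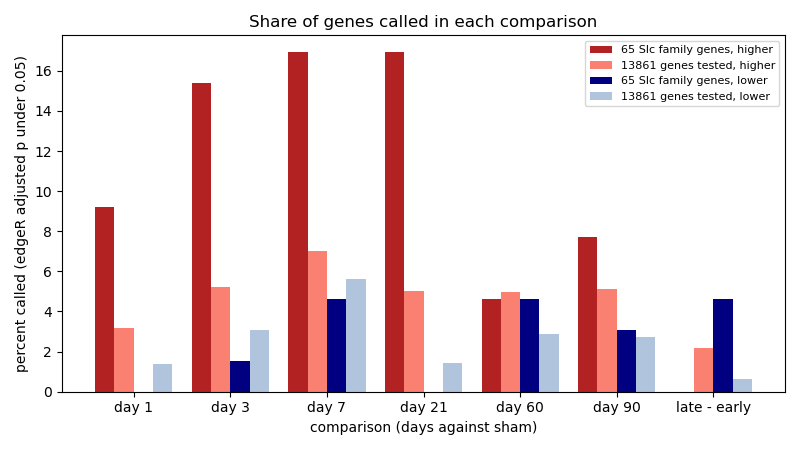
Percent of the 65 tested Slc family genes and of all genes tested that edgeR called (adjusted p under 0.05), higher and lower, for each time against sham and for the late (days 21, 60 and 90) against the early times (days 1, 3 and 7). The Slc family bars for higher calls stand above those of all genes on days 1, 3, 7, 21 and 90 and slightly under on day 60.

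These counts rest on few libraries. Without sham replicate 1 there were 11 calls over the 6 times and without sham replicate 2 there were 6, in place of 55. Over all genes the calls fell in the same fits from 6598 to 1179 and 1103, so the carrier genes held 0.933 and 0.544% of all calls, beside 0.834% with all libraries. The fold of 12 and 16 of the 55 called values moved by over 1.5 times without sham replicate 1 and without sham replicate 2. The calls left in both cases were those of Slc6a8 on days 1, 3, 7 and 90 and of Slc7a8 on day 7. Leaving out day 7 replicate 1 or replicate 2 gave 32 or 35 calls, either day 60 library 30, and day 90 replicate 1 or replicate 2 gave 29 or 28. Without day 21 replicate 1 there were 89. All genes had 3822 and 3943, 3989 and 3974, 3696 and 3693, and 11191 calls in these 7 fits. In these fits the remaining library of a group is assumed to vary like the other groups. Day 1 replicate 2 and day 21 replicate 1 had the highest neutrophil marker sums after stroke, 8432 and 8735 CPM, and with both out 15, 20, 23, 26, 16 and 17 carrier genes were called on days 1, 3, 7, 21, 60 and 90. The share of all genes called rose as well, to 11.8, 18.4, 22.7, 22.8, 18.6 and 18.0%, and the carrier genes held 0.746% of all calls. Among the carrier genes, 13 that were not called against sham with all libraries were then called at 1 to 6 times. Day 1 replicate 2 also had the highest monocyte marker sum of the 14 libraries, 20205 CPM. Thbs1 alone held 9536 CPM of it. The other monocyte markers summed to 10669 CPM, beside 8711 CPM in sham replicate 2 without its top marker Chil3. The homeostatic microglia marker sum of day 1 replicate 2, 4179 CPM, was the lowest after stroke.

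The heavy chain gene Slc3a2 was higher at all 6 times. Its product (CD98) brings Slc7 light chains to the cell surface. Slc3a2 had 110.0 and 181 CPM in sham, 819 and 1318 on day 1, 851 and 893 on day 3, 607 and 837 on day 7, 359 and 761 on day 21, 649 and 1007 on day 60 and 489.7 and 642 on day 90. All 12 stroke libraries lay above both sham libraries, with the lowest in day 21 replicate 1. The log2 fold change against sham was 2.87 ± 0.55 on day 1 (7.33-fold, edgeR adjusted p 0.0137), 2.58 ± 0.54 on day 3 (0.0157), 2.31 ± 0.53 on day 7 (0.0184), 1.94 ± 0.53 on day 21 (0.0492), 2.51 ± 0.54 on day 60 (0.0192) and 1.96 ± 0.53 on day 90 (0.0427). Per kilobase of exon, Slc3a2 had rank 4 of the carrier genes in sham, with 41.3 ± 14.3 CPM per kb (SD, n = 2), and rank 1 at every time after stroke, from 159 ± 80.5 on day 21 to 303 ± 100.05 on day 1. The day 1 call held in 20 of 22 alternative settings and the day 21 call in 9 of 21. Many of these settings leave out a library of a group that the comparison does not use. Such counts, here and below, therefore say little on how firmly a call holds. Without day 21 replicate 2 the day 21 value was 1.30 (adjusted p 0.282).

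Among the light chains that pair with Slc3a2, Slc7a8 and Slc7a7 were higher at several times and Slc7a5 on day 21. Slc7a8 encodes LAT2, an exchanger of neutral amino acids. Slc7a8 had 13.9 and 3.57 CPM in sham, 156 and 195 on day 1, 125 and 243 on day 3, 347 and 119 on day 7, 84.4 and 163 on day 21, 60.1 and 32.1 on day 60 and 67.9 and 47.1 on day 90. Every stroke library was above both sham libraries, and the 4 libraries of days 60 and 90 were the lowest of the 12. Against sham, its log2 fold change was 4.34 ± 0.79 on day 1 (adjusted p 0.0114), 4.41 ± 0.80 on day 3 (0.00819), 4.75 ± 0.81 on day 7 (26.8-fold, 0.00561), 3.83 ± 0.78 on day 21 (0.0163) and 2.73 ± 0.74 on day 90 (0.0439). On day 60 it was 2.41 ± 0.73 with an adjusted p of 0.0641. The day 7 call held in all 22 alternatives, and the day 90 call in 16 of 22.

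Slc7a7 encodes y+LAT1, which exports cationic amino acids in exchange for neutral ones. Its libraries held 26.3 and 34.9 CPM in sham, 183 and 89.1 on day 1, 149.8 and 139 on day 3, 114 and 126 on day 7, 65.6 and 218 on day 21, 88.4 and 116 on day 60 and 63.5 and 80.03 on day 90. All stroke libraries lay above sham. Slc7a7 was called on day 3 (log2 2.24 ± 0.57, adjusted p 0.0325), day 7 (1.97 ± 0.56, 0.04) and day 21 (2.21 ± 0.56, 0.0408), and on day 1 it had 2.15 ± 0.56 with an adjusted p of 0.0513. Without day 21 replicate 2 the day 21 value was 1.10 and missed the threshold. Oxa1l on the opposite strand covers 7.0% of the exon bases of Slc7a7, and as the strand setting of the counting is not stated, reads of the pair cannot be told apart.

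Slc7a5 encodes LAT1, a carrier of leucine and other large neutral amino acids. It had 6.85 and 2.41 CPM in sham, 8.11 and 30.5 on day 1, 9.14 and 20.7 on day 3, 16.6 and 7.95 on day 7, 64.9 and 23.5 on day 21, 8.87 and 5.39 on day 60 and 11.4 and 8.21 on day 90. Its day 21 libraries were above sham, and replicate 1 was the highest of the 14. The day 21 log2 fold change was 3.27 ± 0.83 (adjusted p 0.0404), and without day 21 replicate 1 or replicate 2 it was 2.39 or 3.82, with adjusted p of 0.0829 and 0.0514. Slc7a6, the other y+LAT carrier, had 3.94 and 8.49 CPM in sham and 3.84 to 16.2 CPM after stroke, with no call by edgeR, DESeq2 or limma-voom and an unadjusted p under 0.05 at 1 time. Per kilobase of exon on day 1, Slc7a7 had 41.01 ± 20, Slc7a8 35.1 ± 5.48, Slc7a5 5.21 ± 4.27 and Slc7a6 2.38 ± 0.396 CPM per kb (SD, n = 2 each), and the libraries of Slc7a7 and Slc7a8 overlapped.

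**Figure D2:**
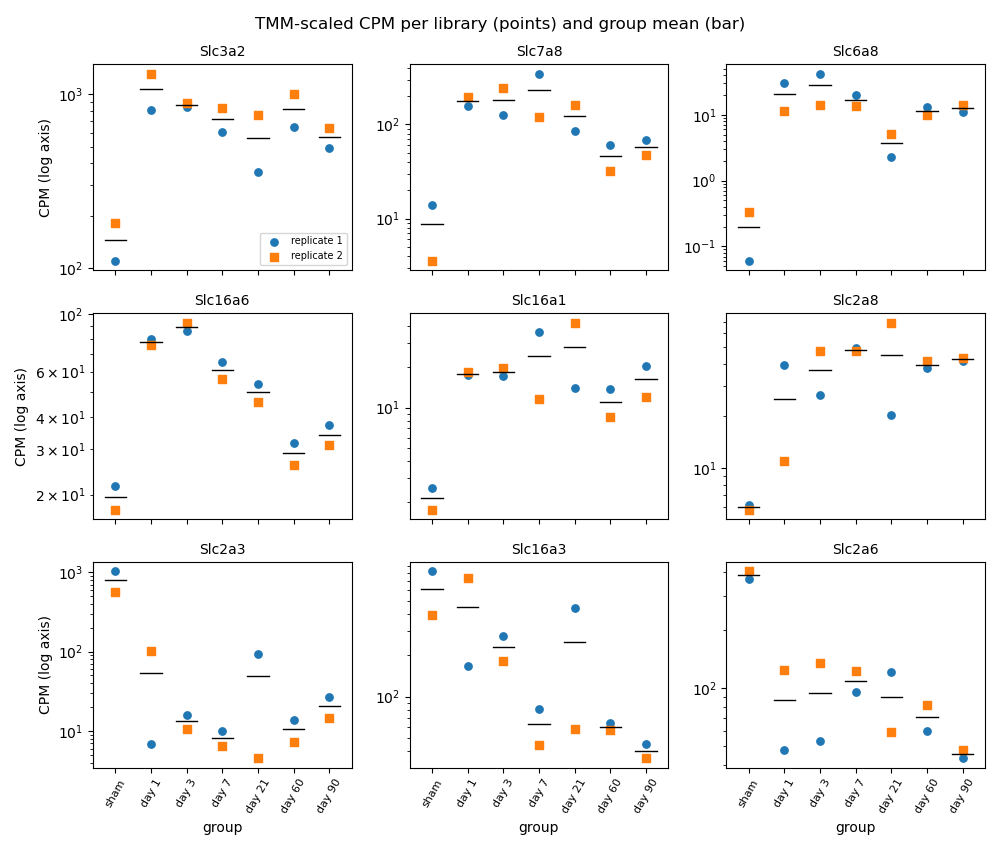
CPM (log axis, TMM-scaled) of 9 carrier genes in sham and on days 1, 3, 7, 21, 60 and 90, with circles for replicate 1, squares for replicate 2 and a bar at the mean of each group. Slc3a2, Slc7a8, Slc6a8, Slc16a6, Slc16a1 and Slc2a8 lie above both sham libraries at every time, Slc2a3 and Slc2a6 lie below them, and Slc16a3 overlaps sham on days 1 and 21.

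Of the remaining Slc7 genes, Slc7a1 encodes CAT1, the general uptake carrier for arginine and lysine. Slc7a1 had 4.61 and 2.77 CPM in sham and 4.99 to 12.95 CPM in the stroke libraries, all above sham. It was not called by edgeR, with an unadjusted p under 0.05 at 3 times and a DESeq2 call at 3. Slc7a4, a relative of the cationic carriers, had 0.0606 and 0.107 CPM in sham, 14.6 and 9.68 on day 7 and at most 3.37 CPM in the other stroke libraries. Its day 7 log2 fold change was 7.05 ± 2.06 (adjusted p 0.0438), a call that held in 12 of 22 alternatives. P2rx6 on the opposite strand covers 13.3% of its exon bases. Slc7a6os had 11.5 and 12.5 CPM in sham and 8.48 to 18.3 after stroke and was not called by any of the 3 tools.

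In the Slc43 family, whose members carry large neutral amino acids or, for Slc43a3, purine nucleobases, Slc43a3 was called. Slc43a3 had 1.21 and 2.78 CPM in sham, 9.42 and 1.61 on day 1, 7.56 and 24.1 on day 3, 43.3 and 43.5 on day 7, 7.68 and 15.7 on day 21, 6.35 and 5.35 on day 60 and 8.59 and 10.4 on day 90. Its day 7 libraries stood above all others, and those of day 1 overlapped with sham. The log2 fold change was 4.42 ± 0.89 on day 7 (21.4-fold, adjusted p 0.0104) and 2.97 ± 0.83 on day 3 (0.0482), and without day 3 replicate 2 the latter was 1.90 (adjusted p 0.258). The LAT4 gene Slc43a2 had 115 and 47.3 CPM in sham and 67.04 to 257 CPM after stroke, and the LAT3 gene Slc43a1 had 0.0606 and 0.214 CPM in sham and 0 to 1.25 after stroke. Neither was called by edgeR, DESeq2 or limma-voom, and neither had an unadjusted p under 0.05.

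The creatine carrier gene Slc6a8 was called higher at every time after stroke. Creatine buffers ATP, and its carrier supplies cells that take it from outside. Slc6a8 had 0.0606 and 0.333 CPM in sham, 30.3 and 11.6 on day 1, 42.3 and 13.9 on day 3, 20.2 and 13.7 on day 7, 2.27 and 5.07 on day 21, 13.01 and 9.80 on day 60 and 11.1 and 14.2 on day 90. Every stroke library was above both sham libraries, with day 21 the lowest. Relative to sham, the log2 fold change was 6.50 ± 0.92 on day 1 (90.3-fold, adjusted p 0.00366), 6.92 ± 0.94 on day 3 (121-fold, 0.00224), 6.19 ± 0.91 on day 7 (0.00305), 4.0 ± 0.83 on day 21 (0.0187), 5.62 ± 0.89 on day 60 (0.00472) and 5.77 ± 0.89 on day 90 (0.00468). These folds rest on 1 and 28 counts in the sham libraries. Over the alternatives the day 1 value ran from 5.64 to 8.39 and the day 3 value from 5.92 to 8.82, both highest without sham replicate 2, where sham is 1 count. The calls on days 1, 3, 7 and 90 held in all 22 alternatives, that on day 60 in 21 of 22 and that on day 21 in 17 of 21, with limma-voom and the fit without day 21 replicate 2 among the exceptions. Per kilobase of exon Slc6a8 stood at 5.40 ± 3.85 CPM per kb on day 3 (SD, n = 2), against 247 ± 8.33 for Slc3a2.

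Slc6a6 encodes the carrier of taurine, an osmolyte of brain cells. Slc6a6 had 224 and 183 CPM in sham, 252 and 224 on day 1, 235 and 250.2 on day 3, 269 and 148 on day 7, 170.1 and 168 on day 21, 254 and 199 on day 60 and 352 and 355 on day 90. Its day 90 libraries were the highest of the 14, with a log2 fold change of 0.80 ± 0.40 and an adjusted p of 0.231. It was not called at any time by edgeR, DESeq2 or limma-voom, nor at an unadjusted p under 0.05.

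The carriers of betaine and GABA were low. Slc6a12 had 2.97 and 3.62 CPM in sham and 0 to 2.60 after stroke. Slc6a13 had 2.85 and 3.24 CPM in sham and 0.0969 to 1.96 after stroke. All stroke libraries of both lay below both sham libraries, and edgeR called neither with all libraries, while each had an unadjusted p under 0.05 at 1 time and a DESeq2 call at 1. Without day 1 replicate 2 and day 21 replicate 1, Slc6a12 was called at 4 times and Slc6a13 at 0. The serotonin carrier gene Slc6a4, named after its values were seen, had 2.85 and 0.986 CPM in sham and 0 to 0.606 after stroke, with no edgeR call, an unadjusted p under 0.05 at 3 times, a DESeq2 call at 3 and an edgeR call at 4 without those 2 libraries. The glycine carrier gene Slc6a9 had 0 and 0.0951 CPM in sham and 0 to 2.36 after stroke, with no call by the 3 tools and an unadjusted p under 0.05 at 1 time.

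Of the sodium-driven and lysosomal amino acid carriers, Slc38a7 was called most often. It encodes SNAT7, which releases glutamine from lysosomes. Slc38a7 had 16.5 and 8.62 CPM in sham, 71.7 and 40.8 on day 1, 55.2 and 88.3 on day 3, 88.2 and 43.6 on day 7, 45.7 and 56.1 on day 21, 29.2 and 28.7 on day 60 and 38.4 and 35.7 on day 90. All stroke libraries were above sham, and the 4 of days 60 and 90 were the lowest of the 12. Its log2 fold change against sham was 2.17 ± 0.51 on day 1 (adjusted p 0.0325), 2.52 ± 0.51 on day 3 (5.73-fold, 0.014), 2.39 ± 0.51 on day 7 (0.0137) and 2.02 ± 0.50 on day 21 (0.0375). On days 60 and 90 it was 1.21 ± 0.49 and 1.56 ± 0.50, with adjusted p of 0.141 and 0.0727.

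Slc38a2 encodes SNAT2, which is induced when amino acids are short. It had 235 and 129 CPM in sham, 45.6 and 132 on day 1, 56.2 and 72.1 on day 3, 84.3 and 49.99 on day 7, 139.6 and 89.2 on day 21, 75.05 and 53.4 on day 60 and 72.6 and 60.9 on day 90. Day 1 replicate 2 and day 21 replicate 1 lay between the sham libraries and the other 10 stroke libraries lay below both. It was not called by edgeR, with an unadjusted p under 0.05 at 4 times, a DESeq2 call at 3 and an edgeR call at 3 without those 2 libraries, which also had the highest neutrophil marker sums after stroke. Slc38a1, the glutamine carrier SNAT1, had 46.02 and 37.8 CPM in sham and 48.6 to 80.8 CPM in the stroke libraries, all above sham, with no call by the 3 tools and an unadjusted p under 0.05 at 2 times. Slc38a9, the arginine sensor of the lysosome, had 12.8 and 11.9 CPM in sham and 12.6 to 19.9 after stroke and was not called by the 3 tools, nor at an unadjusted p under 0.05. Slc38a6 had 1.46 and 2.01 CPM in sham and 1.61 to 12.4 after stroke, with no edgeR call, an unadjusted p under 0.05 at 5 times, a DESeq2 call at 1 and an edgeR call at 6 without those 2 libraries. Slc38a10 had 116 and 89.5 CPM in sham and 80.1 to 394 after stroke and was not called by the 3 tools, nor at an unadjusted p under 0.05.

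The glutamine carrier gene Slc38a3, named after its values were seen, had 0 and 0.0951 CPM in sham, 0.227 and 65.3 on day 1, 0.132 and 2.53 on day 3, 0.242 and 0.232 on day 7, 0.523 and 2.27 on day 21, 0.306 and 0.0484 on day 60 and 0.220 and 0.120 on day 90. Day 1 replicate 2 stood far above the 13 other libraries. That library also had the highest sum of the 12 astrocyte markers, 86.3 CPM against 3.28 to 47.2 CPM in the others, and the highest level of the astrocytic glutamate carrier gene Slc1a2, which had 0.728 and 0.725 CPM in sham and 0.226 to 6.15 after stroke. Of the astrocyte sum, Aldoc alone held 48.7 CPM. The other astrocyte markers summed to 37.6 CPM, beside 35.7 CPM in day 21 replicate 2 without its top marker Gfap. The part of the astrocyte marker content in the Slc38a3 value was not tested. Neither Slc38a3 nor Slc1a2 was called by edgeR with all libraries. DESeq2 called Slc38a3 on days 1, 3 and 21, and edgeR called it on day 1 without day 1 replicate 1, which leaves the high library alone in its group. Slc1a2 was called by neither DESeq2 nor limma-voom.

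In the Slc1 family, Slc1a4 and Slc1a5 encode the neutral amino acid exchangers ASCT1 and ASCT2, the second a route for glutamine. Slc1a4 had 0.0606 and 0.0713 CPM in sham, 0.681 and 1.82 on day 1, 0.855 and 1.04 on day 3, 0.824 and 0.646 on day 7, 3.71 and 0.487 on day 21, 1.07 and 0.718 on day 60 and 1.43 and 1.002 on day 90. All 12 stroke libraries were above sham. It was called on day 21 (log2 4.91 ± 1.27, adjusted p 0.0425), and without day 21 replicate 1, its highest library, the value was 2.86 and missed the threshold. DESeq2 called it at 6 times and limma-voom at 0. Slc1a5 had 43.8 and 39.5 CPM in sham and 25.3 to 52.9 CPM after stroke, with no call by the 3 tools and no unadjusted p under 0.05.

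The Slc36 family carries small amino acids with protons. Slc36a3 had 2.97 and 8.34 CPM in sham, 1.30 and 1.78 on day 1, 1.32 and 0.267 on day 3, 0.0969 and 0.430 on day 7, 1.92 and 0.357 on day 21, 1.57 and 2.05 on day 60 and 0.551 and 1.25 on day 90. All stroke libraries lay below both sham libraries, those of day 7 among the lowest. It was called lower on day 7 (log2 -4.34 ± 1.25, adjusted p 0.0415; 14 of 22 alternatives). The lysosomal carrier gene Slc36a1 had 3.70 and 1.89 CPM in sham and 2.21 to 14.1 after stroke, with no call by the 3 tools and an unadjusted p under 0.05 at 1 time. Slc36a4 had 8.25 and 3.91 CPM in sham and 7.43 to 19.9 after stroke, with no call by the 3 tools and an unadjusted p under 0.05 at 3 times. Slc36a2, named after its values were seen, had 0 and 0.392 CPM in sham and 0.0968 to 12.7 after stroke, and edgeR did not call it with all libraries while DESeq2 did at 5 times, and edgeR did at all 6 without the 2 stroke libraries of highest neutrophil marker sums.

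**Figure D3:**
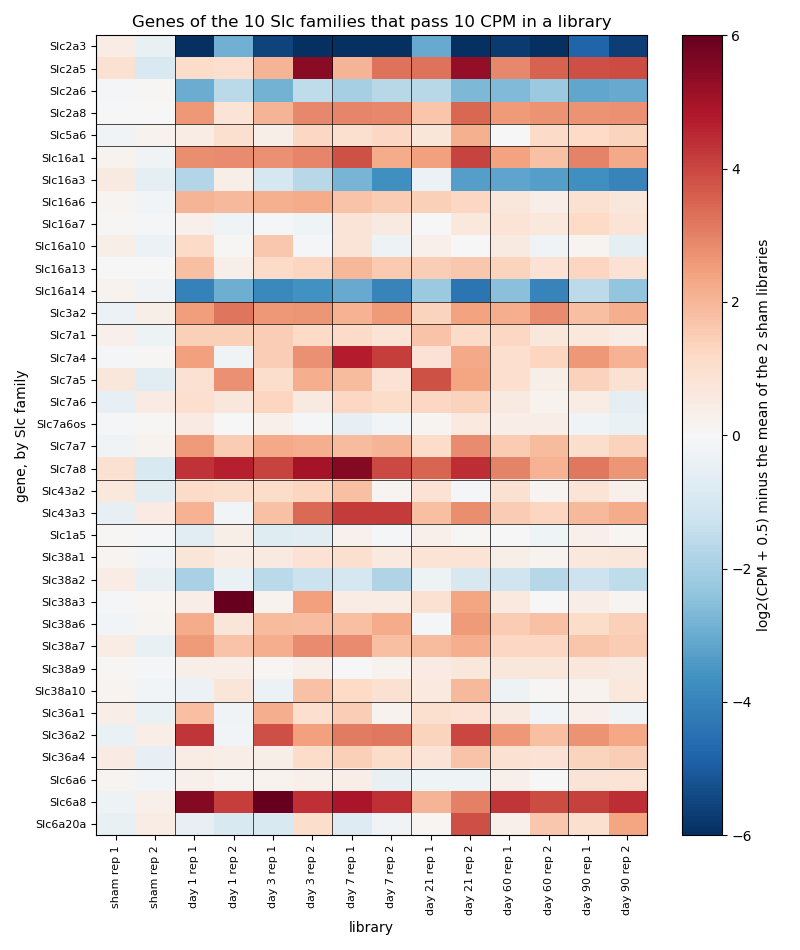
Difference in log2(CPM + 0.5) from the mean of the 2 sham libraries for the 36 Slc family genes with a library over 10 CPM, 1 column per library in the order sham and days 1, 3, 7, 21, 60 and 90, rows ordered by family. Colours end at 6 in either direction, and values beyond take the end colour. Slc6a8, Slc7a8, Slc16a1 and Slc3a2 are higher in all 12 stroke columns, and Slc2a3, Slc2a6 and Slc16a14 are lower in all 12.

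Among sugar carriers the direction differed between genes. Slc2a3 encodes the high-affinity glucose carrier GLUT3. Slc2a3 had 1026 and 558 CPM in sham, 6.75 and 102 on day 1, 15.9 and 10.7 on day 3, 10.03 and 6.42 on day 7, 93.6 and 4.51 on day 21, 13.8 and 7.34 on day 60 and 26.4 and 14.6 on day 90. Every stroke library lay below both sham libraries. The log2 fold change was -5.90 ± 1.5 on day 3 (adjusted p 0.0379), -6.59 ± 1.55 on day 7 (0.0225) and -6.23 ± 1.53 on day 60 (0.0354). On days 1, 21 and 90 it was -3.86 ± 1.36, -4.01 ± 1.37 and -5.27 ± 1.46, with adjusted p of 0.133, 0.107 and 0.0521. Its highest stroke libraries, day 1 replicate 2 and day 21 replicate 1, were those with the highest neutrophil marker sums after stroke, and without them Slc2a3 was called at all 6 times. The next neutrophil marker sums, 4252, 4126 and 3756 CPM, were those of day 3 replicate 1 and the day 90 libraries. Slc2a3 had 15.9, 26.4 and 14.6 CPM there. The part of the neutrophil marker content in the difference from sham was not tested.

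Slc2a6 encodes GLUT6, a carrier of lysosomal membranes. Its libraries held 367 and 401 CPM in sham, 47.7 and 124 on day 1, 52.8 and 135 on day 3, 95.4 and 122 on day 7, 121 and 58.7 on day 21, 60.1 and 81.7 on day 60 and 43.1 and 47.4 on day 90. All stroke libraries lay below both sham libraries. It was called on day 60 (log2 -2.44 ± 0.60, adjusted p 0.0314) and day 90 (-3.08 ± 0.61, 0.0134). On days 1, 3, 7 and 21 the value was -2.16 ± 0.59, -2.03 ± 0.59, -1.82 ± 0.58 and -2.10 ± 0.59 with adjusted p of 0.0606, 0.054, 0.0602 and 0.0553, and DESeq2 and limma-voom called it at all 6 times. Per kilobase of exon in sham, Slc2a6 had rank 1 with 119.5 ± 7.61 CPM per kb, beside 115 ± 56.4 for Slc16a3 and 109 ± 45.7 for Slc2a3 (SD, n = 2 each), and these 3 did not differ beyond their spread.

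Slc2a8 and Slc2a5 went the other way. Slc2a8 encodes GLUT8, a hexose carrier of intracellular membranes. It had 6.18 and 5.80 CPM in sham, 39.3 and 11.1 on day 1, 26.6 and 47.6 on day 3, 49.3 and 47.4 on day 7, 20.2 and 69.4 on day 21, 37.8 and 41.5 on day 60 and 41.6 and 43.5 on day 90. All stroke libraries were above sham, the lowest being day 1 replicate 2. It was called at the 5 times from day 3 on, with log2 fold changes of 2.63 ± 0.67, 3.01 ± 0.68, 2.90 ± 0.68, 2.73 ± 0.67 and 2.83 ± 0.67 (adjusted p 0.0333, 0.0171, 0.0289, 0.0322 and 0.0283). On day 1 it had 2.07 ± 0.66 with an adjusted p of 0.097. Without day 21 replicate 2 its day 21 value was 1.76 (adjusted p 0.217).

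The fructose carrier gene Slc2a5 had 2.67 and 0.416 CPM in sham, 3.18 and 2.97 on day 1, 6.51 and 71.7 on day 3, 6.39 and 15.9 on day 7, 15.96 and 66.2 on day 21, 12.2 and 19.4 on day 60 and 24.1 and 25.01 on day 90. All stroke libraries were above sham, those of day 1 by little. Slc2a5 was called on day 3 (log2 4.73 ± 1.21, adjusted p 0.0346) and day 21 (4.80 ± 1.21, 0.04). Without day 3 replicate 2 the first was 2.14 and without day 21 replicate 2 the second was 3.44, and both then missed the threshold. These libraries also had the highest homeostatic microglia marker sums, 22684 and 40884 CPM, and the part of this in the Slc2a5 values was not tested. The urate carrier gene Slc2a9 had 1.88 and 0.772 CPM in sham and 0.855 to 4.96 after stroke, with no call by the 3 tools and no unadjusted p under 0.05.

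None of the 4 Slc5 genes was called by edgeR at any time, with 4 unadjusted p under 0.05 and 1 call each by DESeq2 and limma-voom. The multivitamin carrier gene Slc5a6 had 1.76 and 2.53 CPM in sham and 2.10 to 10.8 after stroke. The myo-inositol carrier gene Slc5a3 had 0.728 and 1.53 CPM in sham and 0.738 to 2.67 after stroke.

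The lactate carriers also split. Slc16a1 encodes MCT1, which carries lactate, pyruvate and ketone bodies in either direction. Slc16a1 had 2.55 and 1.76 CPM in sham, 17.4 and 18.2 on day 1, 17.2 and 19.5 on day 3, 36.1 and 11.7 on day 7, 13.9 and 42.6 on day 21, 13.7 and 8.46 on day 60 and 20.3 and 12.02 on day 90. All stroke libraries lay above sham, the lowest being day 60 replicate 2. On the log2 scale the change was 3.06 ± 0.68 on day 1 (8.33-fold, adjusted p 0.0277), 3.10 ± 0.69 on day 3 (0.0196), 3.48 ± 0.70 on day 7 (0.0103), 3.73 ± 0.70 on day 21 (0.0126) and 2.92 ± 0.68 on day 90 (0.0257). On day 60 it was 2.37 ± 0.67 with an adjusted p of 0.0502.

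Slc16a3 encodes MCT4, the lactate exporter of glycolytic cells. Slc16a3 had 822 and 397 CPM in sham, 167 and 731 on day 1, 279 and 181 on day 3, 81.05 and 44.4 on day 7, 444 and 57.7 on day 21, 63.7 and 57.1 on day 60 and 44.8 and 35.4 on day 90. Libraries of days 1 and 21 overlapped with sham, and those of days 3, 7, 60 and 90 lay below it. It was called lower on day 7 (log2 -3.28 ± 0.91, adjusted p 0.0371), day 60 (-3.34 ± 0.92, 0.0457) and day 90 (-3.93 ± 0.94, 0.0289), and the day 60 call was lost with upper-quartile scaling. On days 1, 3 and 21 the value was -0.44 ± 0.84, -1.41 ± 0.85 and -1.28 ± 0.85 with adjusted p of 0.81, 0.32 and 0.369. Its highest stroke libraries were again day 1 replicate 2 and day 21 replicate 1, and without them Slc16a3 was also called on day 21. In day 3 replicate 1 and the day 90 libraries, neutrophil marker sums were 4252, 4126 and 3756 CPM. Slc16a3 had 279, 44.8 and 35.4 CPM in these. The part of the neutrophil marker content in the Slc16a3 values was not tested. Per kilobase of exon, Slc16a3 had 84.5 ± 75.04 and Slc16a1 4.02 ± 0.127 CPM per kb on day 1, and on day 90 they had 7.54 ± 1.25 and 3.66 ± 1.33 (SD, n = 2 each), without overlap at either time.

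**Figure D4:**
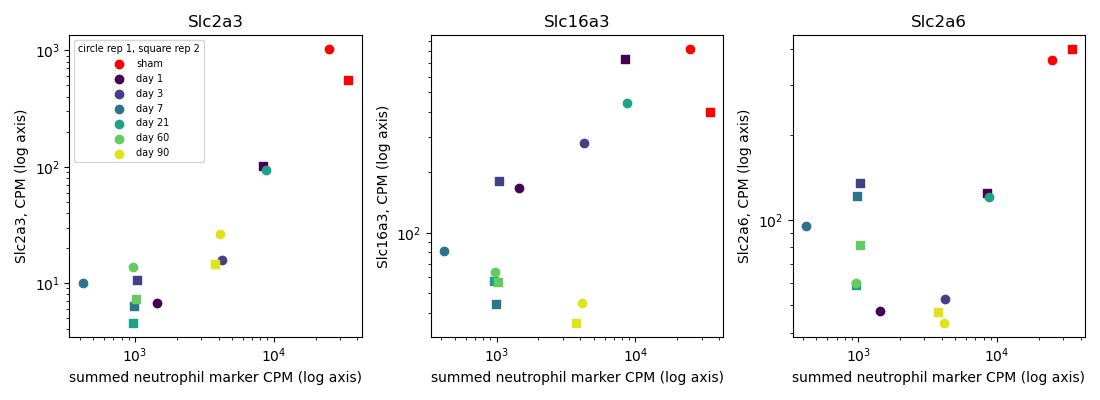
CPM of Slc2a3, Slc16a3 and Slc2a6 (log axes, TMM-scaled) against the summed CPM of the measured neutrophil markers in each of the 14 libraries, sham in red, with circles for replicate 1 and squares for replicate 2. The sham libraries are at the right of each plot, and day 1 replicate 2 and day 21 replicate 1 are the stroke libraries nearest to them for Slc2a3.

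Slc16a6 encodes MCT7, a member of the monocarboxylate family. Slc16a6 had 21.6 and 17.5 CPM in sham, 80.5 and 76.2 on day 1, 86.2 and 93.1 on day 3, 65.2 and 56.2 on day 7, 53.7 and 45.96 on day 21, 31.8 and 26.1 on day 60 and 37.2 and 31.2 on day 90. All 12 stroke libraries were above sham, and all 6 of the late times were below all 6 of the early times. The log2 fold change against sham was 2.0 ± 0.36 on day 1 (4.01-fold, adjusted p 0.0109), 2.20 ± 0.36 on day 3 (0.00587), 1.63 ± 0.36 on day 7 (0.015) and 1.35 ± 0.35 on day 21 (0.0441). On days 60 and 90 it was 0.57 ± 0.35 and 0.81 ± 0.35, with adjusted p of 0.316 and 0.168. Amz2 and Arsg on the opposite strand cover 22.5% of its exon bases, so its counts are uncertain for the reason given for Slc7a7.

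Among the other monocarboxylate carriers, Slc16a13 was called on day 7. It had 3.46 and 3.42 CPM in sham and 4.52 to 15.1 CPM in the stroke libraries, all above sham, with a day 7 log2 fold change of 1.93 ± 0.56 (adjusted p 0.0425), a call that held in 11 of 22 alternatives. The MCT2 gene Slc16a7 had 17.2 and 15.8 CPM in sham, 15.3 and 13.6 on day 3 and 38.8 and 29.2 on day 90, with no call by the 3 tools and an unadjusted p under 0.05 at 1 time. Slc16a10, which carries aromatic amino acids, had 11.2 and 6.50 CPM in sham and 5.59 to 27.6 after stroke, with no call by the 3 tools and no unadjusted p under 0.05. Slc16a14, named after its values were seen, had 11.3 and 8.45 CPM in sham and 0 to 3.001 after stroke, with no edgeR call, while DESeq2 called it at 3 times, limma-voom at 4 and edgeR at 4 without day 1 replicate 2 and day 21 replicate 1.

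The late times (days 21, 60 and 90) were compared with the early ones (days 1, 3 and 7) through the means of the 3 groups on each side, which uses no sham value. Lower calls numbered 3, and none was higher by edgeR or limma-voom, where 5 had an unadjusted p under 0.05 and DESeq2 called 1. Over all genes 2.83% were called, 2.18% higher and 0.649% lower. Slc16a6 was lower at the late times by a log2 difference of -1.04 ± 0.20 (adjusted p 0.0178). Slc38a5, which encodes the glutamine and glycine carrier SNAT5, had 0.0606 and 0.665 CPM in sham, 1.76 and 5.63 on day 1, 0.987 and 8.54 on day 3, 0.242 and 0.637 on day 7, 1.26 and 5.25 on day 21, 0 and 0 on day 60 and 0.220 and 0.3005 on day 90. Slc38a5 was lower at the late times (edgeR adjusted p 0.0459), although early and late libraries overlapped. Its day 21 libraries lay above both of day 7, and the day 60 group without a count enters the late mean. Slc6a19, a neutral amino acid carrier known from gut and kidney, had 0 and 0.0713 CPM in sham, 1.42 and 0.442 on day 1, 1.32 and 0.540 on day 3, 0.630 and 0.513 on day 7, 0 and 0 on day 21, 0 and 0.258 on day 60 and 0.0275 and 0.02003 on day 90. All its late libraries were below all early ones (adjusted p 0.0352). In the same comparison edgeR called 9 of 9 tested B cell markers higher at the late times, with a median log2 difference of 6.46, and 8 of 11 T and NK cell markers, with a median of 3.60, while 1 border-associated macrophage marker was higher and 2 were lower. The B cell markers Pax5 and Cr2 had no count on days 1 and 7, and Blk had none on day 1. The part of these markers in the 3 calls was not tested.

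Leaving out either sham library kept all 3 of these calls. Without day 7 replicate 1, day 60 replicate 1 or either day 90 library, no call was left. Without day 3 replicate 2, day 7 replicate 2 or day 60 replicate 2, 1 was left, and without day 21 replicate 1 there were 5. The median log2 difference of the 65 genes was -0.07 with fitted values and 0.06 with genes lacking counts placed at the floor, beside -0.01 over all genes.

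In all, 48 of the 68 genes were called in none of the 7 comparisons. Of these, 45 were tested and 24 had an unadjusted p under 0.05 at 1 or more times, a count for which no share over all genes was taken. The highest library was under 1 CPM in 12 of the 48, at 1 to 10 CPM in 16 and over 10 CPM in 20. All 12 stroke libraries lay above both sham libraries for 13 carrier genes and below both for 8, where the shares over all genes were 10.3% and 10.9%.

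Pathway genes outside these families were taken from 5 lists. Over all genes, edgeR called 4.55, 8.28, 12.6, 6.44, 7.85 and 7.86% on days 1, 3, 7, 21, 60 and 90. At an unadjusted edgeR p under 0.05 there were 3026, 3631, 4021, 3444, 3724 and 3627 of the 13861 genes. Whether the list counts differ from these was not tested. Of 19 genes of the integrated stress response and amino acid supply, 2, 3, 3, 3, 2 and 2 were called higher than sham and 0, 2, 4, 0, 2 and 3 lower on days 1, 3, 7, 21, 60 and 90, with medians of the log2 fold change from -0.41 on day 7 to 0.75 on day 1. Phgdh, the first enzyme of serine synthesis, had 0.918 ± 0.0973 CPM in sham and 28.7 ± 18.4 on day 21 (SD, n = 2 each; log2 4.96 ± 0.85, edgeR adjusted p 0.00778). Psat1, the next enzyme, had 6.91 ± 2.40 in sham and 117 ± 15.3 on day 7 (4.08 ± 0.79, 0.00871). Chac1, an ATF4 target that degrades glutathione, was lower on days 3, 7, 60 and 90, with 26.3 ± 7.51 CPM in sham and 0.212 ± 0.112 on day 7 (-7.05 ± 1.19, 0.00524).

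Of 22 genes of amino acid sensing at the lysosome, 0, 0, 2, 1, 1 and 2 were higher and 1, 2, 2, 0, 2 and 1 lower at the 6 times, while 2, 3, 7, 5, 6 and 7 had an unadjusted p under 0.05. Tfeb, a factor that drives lysosomal genes, had 217 ± 40.6 CPM in sham and 63.4 ± 0.661 on day 3 (log2 -1.78 ± 0.39, edgeR adjusted p 0.0193). Rragd, a Rag GTPase of the mTORC1 pathway, had 1.42 ± 0.0308 CPM in sham and 16.3 ± 0.774 on day 90 (3.53 ± 0.71, 0.014). Of 16 genes of amino acid breakdown, 3, 3, 1, 1, 2 and 1 were higher and 0, 1, 1, 1, 0 and 1 lower. The aspartate aminotransferase gene Got1 was higher at all 6 times, with 9.34 ± 0.520 CPM in sham and 191 ± 6.98 on day 3 (log2 4.35 ± 0.39, edgeR adjusted p 0.000339). The list also held larger differences. Arg1 had 0.335 ± 0.216 CPM in sham, 2516 ± 1675 on day 1, 1503 ± 1327 on day 3 and 3.91 ± 0.296 on day 7 (SD, n = 2 each). Arg2 had 305 ± 138 CPM in sham and 4.69 ± 1.02 on day 7.

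Of 20 genes of glycolysis and lactate, 1, 1, 0, 1, 0 and 0 were higher and 1, 1, 3, 0, 2 and 0 lower at the 6 times, while 9, 10, 11, 10, 6 and 5 had an unadjusted p under 0.05. The triose phosphate isomerase gene Tpi1 was higher on day 1 (log2 2.15 ± 0.46, edgeR adjusted p 0.0224). Pfkfb4, a regulator of glycolytic rate, was lower on days 1, 3, 7 and 60, with -3.11 ± 0.62 on day 3 (0.0131). Emb, an ancillary subunit of Slc16 carriers, was lower on day 7 (-3.41 ± 0.88, 0.0278). Of 11 genes of glucose transport and its regulators, 1, 3, 2, 4, 3 and 3 were higher and 0, 1, 3, 0, 3 and 2 lower. Txnip, which promotes removal of glucose carriers from the surface, had 825 ± 249 CPM in sham and 54.4 ± 11.2 on day 7 (log2 -3.92 ± 0.69, edgeR adjusted p 0.00659), and Epas1, a hypoxia-inducible factor, had 0.288 ± 0.0211 and 8.47 ± 0.172 CPM in sham and on day 90 (4.88 ± 0.88, 0.00901).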

How the data were processed

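The authors deposited raw counts per gene for each library, aligned with Bowtie2 2.3.4.2 to mm9 and counted with HTSeq 0.6.1, per the submitters' processing notes. The annotation and the strand setting are not given there. The tests used edgeR 4.0.16 in R 4.3.3, with TMM scaling, filterByExpr by group (223 genes removed), group means over all 14 libraries, glmQLFit and glmQLFTest with robust estimates, and Benjamini-Hochberg adjustment over all genes. DESeq2 1.42.0, limma-voom 3.58.1, RLE and upper-quartile scaling, no filter, a replicate block and leaving out each library were alternatives. For the medians given with a floor, a group without a count was set at 3 counts over the group. The tests and fitted fold changes did not use this floor. The genes named are mainly those called in any comparison, the 2 of highest mean CPM in each family and a panel of known carriers. Slc6a4, Slc38a3, Slc36a2 and Slc16a14 were added after their values were seen. Slc7a6os, the untested genes and the flagged gene Slc6a20a are named as well. From the pathway lists, up to 3 called genes per list and comparison were picked, and some of these are named. Genes and lists were chosen with earlier results of these data known. Exon lengths and overlaps come from GENCODE M21 (GRCm38) by symbol, not from mm9. Scripts were tested on simulated counts.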

Additional observations from a re-analysis of the deposited data

Results flagged for a closer look

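Slc16a6, Slc38a5 and Slc6a19 differed between the late and the early times in the edgeR quasi-likelihood test of that difference, with adjusted p of 0.0178, 0.0459 and 0.0352. In 7 of the 65 tested genes, libraries lay wholly above both sham libraries at some times and wholly below both at others, a difference that was not tested. Slc16a7 lay above at 3 times (days 7, 60 and 90) and below on day 3. Slc1a2 lay above at 3 times (days 1, 21 and 60) and below on days 7 and 90. Slc38a5 lay above at 3 times (days 1, 3 and 21) and below on day 60. Slc1a5 lay above at 2 times (days 21 and 90) and below on day 3, Slc6a6 above at 2 times (days 3 and 90) and below on day 21, and Slc7a6os above at 2 times (days 21 and 60) and below on days 7 and 90. Slc6a20a lay above at 1 time (day 90) and below on day 1. Such a pattern was found in 8.67% of all genes tested and in 10.8% of the 65.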

How the results depend on the processing

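In order of days 1, 3, 7, 21, 60 and 90 against sham, and then late against early, the counts of carrier genes called were 6, 11, 14, 11, 6, 7 and 3. DESeq2 called 17, 23, 24, 21, 14, 17 and 7, and 14.4, 20.5, 23.9, 17.6, 20.1, 19.8 and 8.35% of all genes. With limma-voom the counts moved by over 1.5 times on day 21 (17, with 13.2% of all genes) and day 90 (11, with 10.4%). With both day 21 libraries out they were 12, 17, 11 and 11 on days 1, 3, 60 and 90, with 7.98, 13.2, 12.8 and 13.1% of all genes. With the 2 stroke libraries of highest neutrophil marker sums out they were 15, 20, 23, 26, 16 and 17 against sham. Both of the last settings were chosen after seeing the data. Leaving out 1 library at a time gave 1 to 13, 1 to 17, 2 to 20, 0 to 18, 0 to 11, 1 to 12 and 0 to 5.

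With the replicate number as a block, 10, 14, 15, 16, 9, 13 and 3 carrier genes were called, with 8.62, 14.4, 20.0, 11.4, 14.1, 14.5 and 4.91% of all genes, and every call made without the block was kept. Under the block Slc2a6 was called at 6 times in place of 2, Slc38a5 at 4 and Slc7a1 at 3 in place of 0, and Slc16a1 and Slc7a8 also on day 60. Same-numbered libraries of different groups deviated together in all 21 pairs of groups, with correlations of 0.071 to 0.677 (median 0.374), the second principal component separated the numbers, and the numbers differ in depth. The labels do not say that a number marks a shared batch, and the lowest correlation is under the 0.1 required here of every pair of groups, so the fit without the block is the main one. Whether same-numbered libraries share a batch remains unknown.

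Of 1265 values of single genes under the alternatives, 954 kept their direction and call, 311 kept the direction and missed the threshold, and 0 reversed. These are values of calls picked by adjusted p on the same data. Many alternatives left out a library of a group that the comparison does not use. A reversal was therefore hardly possible, and the lack of any is no support for the calls. Upper-quartile scaling moved the median log2 fold change of all genes by up to 0.22. The 2 libraries a group, the 7 residual degrees of freedom and a common biological coefficient of variation of 0.639 limit the precision of these calls, and replicate 1 libraries, at depths 6.60 to 9.19 times lower than replicate 2, set the floor for rare transcripts.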
